A study of Mus musculus with 4 samples.

Results

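The expression of 10 genes of antigen presentation by the major histocompatibility complex (MHC) was measured in liver by RNA-seq. The genes were chosen by name, and all 10 of the listed names were found among the 25655 genes of the deposited table. They are the class II genes H2-Aa, H2-Ab1, H2-Eb1, H2-DMa, H2-DMb1, Cd74 and Ciita, and the class I genes H2-K1, H2-D1 and B2m. All 10 passed the filter on low counts, which kept 12967 genes.

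The study asked what the loss of the RNA-editing enzyme ADAR2 does to the liver of mice on a high-fat diet (HFD). HFD-WT livers came from ADAR2+/+/GluR-B R/R mice and HFD-KO livers from ADAR2-/-/GluR-B R/R mice, and each group has 2 libraries. Both genotypes therefore carry the edited GluR-B allele, which keeps mice without ADAR2 alive, and the knockout reaches every tissue. The mice were bred on a mixed B6129S background and ate the HFD for 12 weeks from the age of 5 weeks, and by this stage the study had turned to males. Whether a library holds 1 mouse or a pool is not given in the sources used here, although a legend of the study's sequencing results names more mice per group than there are libraries, so the p-values measure only the spread between these libraries.

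MHC molecules carry peptides to the cell surface, where T cells read them. Class I molecules, a heavy chain bound to beta-2-microglobulin, show peptides from inside the cell and are made by nearly all nucleated cells. Class II molecules, pairs of an alpha and a beta chain, show peptides from engulfed material and are made mainly by dendritic cells, macrophages and B cells, with the invariant chain Cd74 guarding their groove, the H2-DM pair loading the peptide and the coactivator Ciita switching on their genes. In liver, Kupffer cells, dendritic cells and B cells are known carriers of class II, and sinusoidal endothelial cells can carry it too, while hepatocytes carry class I.

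The promoters of the members are shown first, and whether the words in them bear on the levels was not tested. RefSeq promoter sequence on GRCm38.p6 was matched for 7 of the 10 genes, and the 180 bases before the annotated start are given for the 6 genes in which a searched word was found. Capitals mark the words searched on both strands, which are the Y box word TGATTGG, the X box word AACTGATG, the cAMP response element word TGACGTCA, the NF-kB word GGGATTCCC and the interferon regulatory factor word AANNGAAA. The windows are chr17:34287824-34288003 on the minus strand for H2-Aa, chr17:34305687-34305866 on the plus strand for H2-Eb1 and chr17:34153011-34153190 on the plus strand for H2-DMb1. Those of the class I genes are chr17:34000348-34000527 on the minus strand for H2-K1, chr17:35262914-35263093 on the plus strand for H2-D1 and chr2:122147507-122147686 on the plus strand for B2m.
H2-Aa: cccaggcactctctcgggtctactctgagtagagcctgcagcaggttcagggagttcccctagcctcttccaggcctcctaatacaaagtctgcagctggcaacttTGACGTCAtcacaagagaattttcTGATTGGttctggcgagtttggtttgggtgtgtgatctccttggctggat
H2-Eb1: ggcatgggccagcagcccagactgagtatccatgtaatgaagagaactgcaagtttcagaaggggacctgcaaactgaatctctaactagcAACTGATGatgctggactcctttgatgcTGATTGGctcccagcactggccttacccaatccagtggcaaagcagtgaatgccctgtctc
H2-DMb1: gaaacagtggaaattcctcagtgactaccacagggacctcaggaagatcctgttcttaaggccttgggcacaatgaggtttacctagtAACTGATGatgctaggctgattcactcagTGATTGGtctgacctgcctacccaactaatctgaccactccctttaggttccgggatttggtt
H2-K1: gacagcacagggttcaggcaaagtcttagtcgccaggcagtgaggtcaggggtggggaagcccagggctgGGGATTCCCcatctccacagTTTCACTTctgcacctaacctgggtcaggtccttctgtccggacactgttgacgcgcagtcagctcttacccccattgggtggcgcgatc
H2-D1: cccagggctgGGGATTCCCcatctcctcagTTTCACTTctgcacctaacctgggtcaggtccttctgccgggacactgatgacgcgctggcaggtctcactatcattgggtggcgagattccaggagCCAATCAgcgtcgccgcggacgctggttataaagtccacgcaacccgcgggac
B2m: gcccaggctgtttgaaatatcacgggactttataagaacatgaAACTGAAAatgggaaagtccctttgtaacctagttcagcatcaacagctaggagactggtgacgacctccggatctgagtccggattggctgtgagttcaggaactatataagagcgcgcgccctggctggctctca

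The 3 class II promoters shown share the Y box word, at -50 in H2-Aa, -61 in H2-Eb1 and -63 in H2-DMb1, counted from the annotated start to the first letter. In H2-Eb1 and H2-DMb1 the X box word precedes it, at -89 and -92, while H2-Aa has the cAMP response element word at -74. The class I heavy chain promoters hold the NF-kB word, at -110 in H2-K1 and -170 in H2-D1, each followed by the interferon regulatory factor word in the form TTTCACTT, at -90 and -150. H2-D1 also has the Y box word in reverse, CCAATCA, at -53, and in H2-K1 it begins 8 bases after the first of 2 listed starts, outside the window. In B2m the interferon regulatory factor word stands at -137. No match overlapped another. Of 32851 RefSeq mouse promoters, a window of this length held the Y box word in 6.31%, the X box word in 0.475%, the cAMP response element word in 1.45%, the NF-kB word in 0.18% and the interferon regulatory factor word in 15.1%. H2-DMa has 2 listed promoters. The first held none of these words, which says only that the letters are not in that window, and the second was not examined.

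Facts of the libraries that touch these genes are few. The total count was between 24480798 and 28691330 per library, and 3 counts, taken as the smallest detectable level, correspond to between 0.104 and 0.126 CPM (counts scaled to a library of 1e+06) for counting error alone. Adarb1, which encodes ADAR2, had 15.7 and 19.8 CPM in HFD-WT and 6.23 and 9.55 CPM in HFD-KO, a log2 fold change of -1.17 (unadjusted p = 0.000589, adjusted p = 0.159), and reads over the whole gene cannot show which part was deleted. Alb, the main plasma protein of hepatocytes, was between 52676 and 66104 CPM and Cyp2e1, an ethanol-metabolizing enzyme, between 8738 and 10697 CPM, so the labelled tissue was present in every library. The immunoglobulin gene Ighm stood at 73.9 CPM in the first HFD-KO library and between 7.45 and 7.85 CPM in the other 3. The labels give no batch.

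Transcripts of class I far outnumbered those of class II in every library. On the TPM scale, on which the authors divided the counts by gene length and set every library to the same sum, B2m, the light chain of class I, had the highest level of the 10 genes, with a mean of 3187 TPM over the 4 libraries. The classical heavy chains H2-K1 and H2-D1 followed at mean levels of 1545 and 669 TPM. Cd74 was next at 189 TPM, above the class II chains H2-Ab1 at 80.0, H2-Aa at 78.2 and H2-Eb1 at 42.2 TPM. The peptide exchange subunits H2-DMb1 and H2-DMa stood at 8.98 and 4.40 TPM, and Ciita, a transcriptional coactivator, was lowest at 0.687 TPM. The order held in each library for all neighbouring genes except H2-Ab1 and H2-Aa, which changed places in 1 of 4 libraries. The ranges over libraries overlapped for that pair, for H2-Aa and H2-Eb1, and for H2-DMb1 and H2-DMa. H2-DMb1 shares 11.3% of its 100-base transcript words with its near copy H2-DMb2, H2-D1 shares 3.59% and H2-K1 0.957% with other class I genes, so reads of these 3 genes may have been assigned in part to relatives, or come from them.

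**Figure D1:**
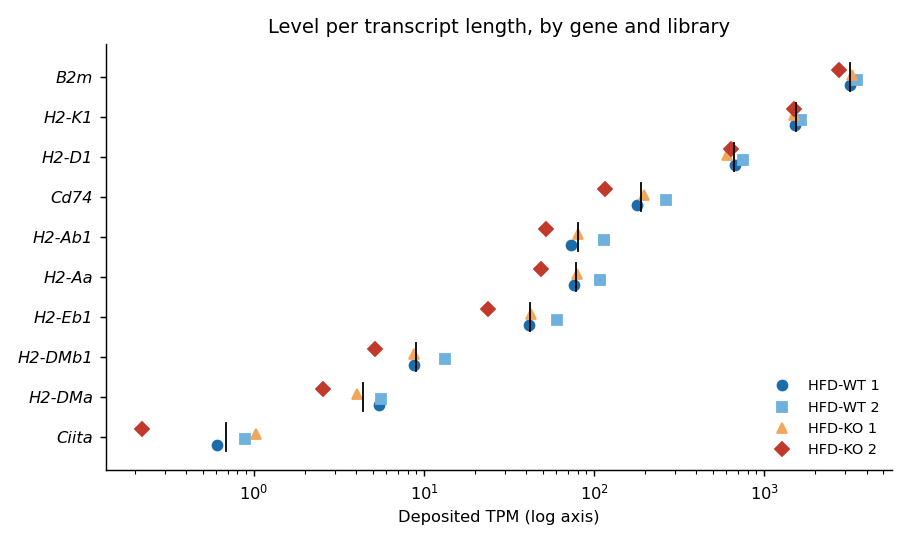
Deposited TPM of the 10 genes (horizontal log axis), with 1 marker per library and a vertical bar at the mean of all 4. B2m, H2-K1 and H2-D1 lie to the right of every class II gene, and the second HFD-KO library is the lowest marker for each class II gene.

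The class II alpha chain H2-Aa, on chromosome 17 from 34501718 to 34506797 of the minus strand (GRCm39), had 43.3 and 59.8 CPM in HFD-WT and 47.2 and 28.01 CPM in HFD-KO. One HFD-KO library lay between the HFD-WT libraries and the other below them. The log2 difference between the genotypes (HFD-KO minus HFD-WT, here the log2 fold change) was -0.45 with a 95% interval from -1.02 to 0.11 (edgeR's quasi-likelihood test, unadjusted p = 0.102, adjusted p = 0.640). Its partner H2-Ab1, the class II beta chain, from 34476663 to 34488393 of the plus strand, had 44.8 and 67.9 CPM in HFD-WT and 50.9 and 32.3 CPM in HFD-KO. The same library stood in the middle and the same library was lowest, and the log2 fold change was -0.44 (interval -1.01 to 0.14, adjusted p = 0.661). H2-Eb1, the beta chain of the second class II molecule, from 34524841 to 34535648 of the plus strand, had 37.5 and 53.4 CPM in HFD-WT and 40.4 and 21.7 CPM in HFD-KO. Its log2 fold change was -0.55 (interval -1.19 to 0.10, adjusted p = 0.630). The alpha chain gene that would pair with it, H2-Ea, had 0 reads in all 4 libraries, below the 3 counts taken as detectable, and the b haplotype of B6 and 129 mice is known to carry a defect in that gene. H2-Ea was named after its values were seen.

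Cd74, the invariant chain that escorts class II molecules, had the highest level of the class II genes, with 127 and 184 CPM in HFD-WT and 146 and 83.9 CPM in HFD-KO. The groups overlapped in the same way, and the log2 fold change was -0.44 with a standard error of 0.26 (interval -1.05 to 0.17, adjusted p = 0.672). Summed over H2-Aa, H2-Ab1, H2-Eb1 and Cd74, here called the class II core, the level was 253 and 365 CPM in HFD-WT and 284 and 166 CPM in HFD-KO. In bulk liver, fewer cells of a type and less RNA per cell cannot be told apart.

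The H2-DM genes encode a non-classical class II molecule that exchanges the invariant chain remnant for a peptide. H2-DMa, from 34338515 to 34358075 of the plus strand of chromosome 17, had 7.25 and 7.31 CPM in HFD-WT and 5.66 and 3.48 CPM in HFD-KO. Both HFD-KO libraries lay below both HFD-WT libraries, with a log2 fold change of -0.67 (interval -1.21 to -0.13, unadjusted p = 0.0219, adjusted p = 0.462). The unadjusted p was 0.0617 without the first HFD-WT library, 0.0664 without the second and 0.0782 without the second HFD-KO library, where the log2 fold change was -0.36. H2-DMb1, from 34372046 to 34379204 of the plus strand, had 6.18 and 9.13 CPM in HFD-WT and 6.46 and 3.68 CPM in HFD-KO, so that the groups overlapped. Its log2 fold change was -0.59 (interval -1.26 to 0.09, adjusted p = 0.617), and with the reads of H2-DMb2 added it was -0.43.

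Ciita, on chromosome 16 from 10297923 to 10346282 of the plus strand, had the widest spread of the 10 genes. It had 73 and 99 reads in HFD-WT and 118 and 22 reads in HFD-KO, or 2.52 and 3.60 CPM against 4.48 and 0.92 CPM. The HFD-KO libraries were the highest and the lowest of the 4, which left a log2 fold change of -0.16 with an interval from -1.53 to 1.204 (adjusted p = 0.960). Without the first HFD-KO library the log2 fold change was -1.72 and without the second it was 0.55, and without the second HFD-WT library it was 0.11, so its direction changed with the libraries kept.

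The class I heavy chain H2-K1, from 34214991 to 34219321 of the minus strand of chromosome 17, had 1319 and 1402 CPM in HFD-WT and 1365 and 1334 CPM in HFD-KO. All 4 libraries lay close together, with a log2 fold change of -0.01 and an interval from -0.24 to 0.22 (adjusted p = 0.981). H2-D1, from 35481706 to 35486475 of the plus strand, had 765 and 833 CPM in HFD-WT and 718 and 741 CPM in HFD-KO. The HFD-KO libraries were both lower, by a log2 fold change of -0.13 (interval -0.35 to 0.09, unadjusted p = 0.205, adjusted p = 0.723). B2m, on chromosome 2 from 121978167 to 121983564 of the plus strand, had 1380 and 1477 CPM in HFD-WT and 1492 and 1208 CPM in HFD-KO, where the HFD-KO libraries were the highest and the lowest. Its log2 fold change was -0.08 (interval -0.38 to 0.22, adjusted p = 0.886).

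**Figure D2:**
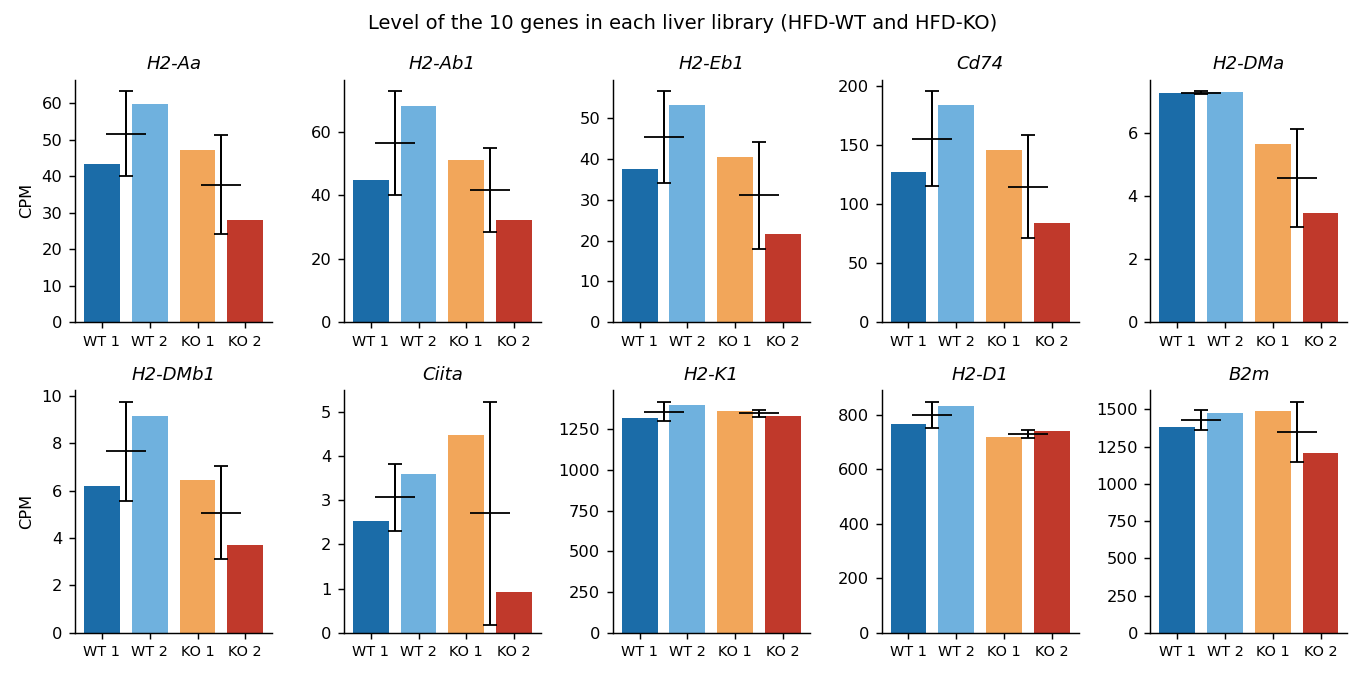
CPM of each gene (vertical axis from 0, a scale per panel) in each of the 4 libraries as bars, with the group mean and SD (n = 2) in black. In 6 of the 7 class II genes the second HFD-WT library is the highest bar, and in all 7 the second HFD-KO library is the lowest, while the bars of H2-K1 are nearly level.

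Counted over the 10 genes, none was called at an adjusted p under 0.05 by edgeR's quasi-likelihood test, where 0.0771% of all genes tested were called, and the smallest adjusted p was 0.462. By DESeq2, which called 117 genes of the whole table, again none of the 10 was called. At an unadjusted p under 0.05, 1 of 10 was lower in HFD-KO (H2-DMa), where 4.73% of all genes tested were, and 0 of 10 were higher, where 4.25% were. In 2 of 10 (H2-DMa and H2-D1) both HFD-KO libraries lay below both HFD-WT libraries, where 20.3% of all genes tested did. The log2 fold change was below 0 for 10 of 10 genes and for 48.4% of all genes tested, with a median of -0.44 over the 10 and 0.0068 over all. The genes share libraries and, for the class II genes, a pattern, so these counts are not 10 separate observations. The second HFD-KO library was the lowest of the 4 in 8 of 10 genes, against 29.2% of the 12943 tested genes with reads in every library. In 6 of 10 the second HFD-WT library was also the highest, against 12.7% of those 12943 genes. The median of the 6 class II genes without Ciita was -0.50 and that of the 3 class I genes -0.08, and this difference between them was not tested.

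How far the class II result rests on single libraries was measured by leaving each out. Without the first HFD-KO library, the 6 class II genes other than Ciita had log2 fold changes from -1.06 for H2-Eb1 to -0.80 for H2-Ab1. In that setting 7 of 10 genes, all of class II, were called (adjusted p from 4.2e-06 for H2-Eb1 to 0.0044 for H2-DMb1), but the group then holds 1 library that is assumed to vary like the others, and 705 genes of the whole table were called instead of 10. Without the second HFD-KO library the same 6 genes lay between -0.36 for H2-DMa and -0.09 for Cd74, and without the second HFD-WT library 0 of 10 genes were lower at an unadjusted p under 0.05. H2-K1 stayed between -0.06 and 0.03 in these settings, and B2m had an unadjusted p of 0.0148 (adjusted p = 0.154) without the first HFD-KO library.

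**Figure D3:**
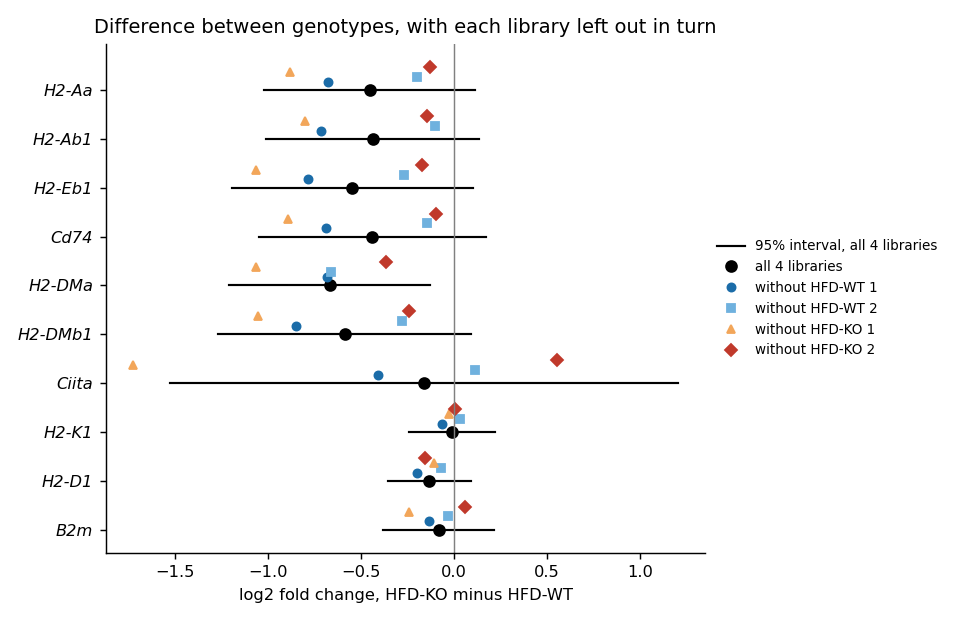
Log2 fold change (HFD-KO minus HFD-WT) for each gene (black circle with 95% interval, n = 2 libraries per group) and with each library left out (coloured markers). The marker without the first HFD-KO library lies far to the left for every class II gene, and that without the second HFD-KO library lies between -0.36 and -0.09 or, for Ciita, to the right of 0.

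The class II genes kept nearly fixed proportions within each library, whatever their level. The TPM ratio of H2-Ab1 to H2-Aa was between 0.963 and 1.07, that of Cd74 to H2-Aa between 2.34 and 2.46, and that of H2-Eb1 to H2-Aa between 0.487 and 0.560. H2-DMb1 was between 0.106 and 0.123 of H2-Aa. H2-DMa was 0.0708 of H2-Aa in the first HFD-WT library and between 0.0507 and 0.0525 in the other 3. Ciita did not keep a fixed proportion, at 0.0130 of H2-Aa in the first HFD-KO library and 0.0045 in the second. The ratio between the classes varied more, and H2-K1 was between 15.3 and 19.9 times H2-Aa in 3 libraries and 31.1 times in the second HFD-KO library. Within class I, H2-D1 was between 0.403 and 0.456 of H2-K1, and B2m between 1.28 and 1.57 of the sum of both heavy chains.

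Class II is carried by few of the cells of a liver, so the markers of those cells are given beside it. The 12 Kupffer cell and macrophage markers summed to 491 and 615 CPM in HFD-WT and 401 and 381 CPM in HFD-KO. Of these, 11 were lower, 9 at an unadjusted p under 0.05, where 4.73% of all genes tested were, and none at an adjusted p under 0.05. Both HFD-KO libraries lay below both HFD-WT libraries in 10, where 20.3% of all genes tested did. The markers share libraries, so these counts are not separate observations. Vsig4, a complement receptor of Kupffer cells, had a log2 fold change of -0.63 (unadjusted p = 0.000240, adjusted p = 0.112), Cd5l, a secreted macrophage protein, had -0.62, and Mpeg1, a pore-forming protein of macrophages, had -0.55. Marco, the marker above 0, had 5.52 and 4.07 CPM in HFD-WT and 4.56 and 8.71 CPM in HFD-KO (log2 fold change 0.46). The groups also overlapped for Cd68, with 13.2 and 19.1 CPM in HFD-WT and 14.1 and 10.7 CPM in HFD-KO. Marco and Cd68 were named after their values were seen. The sum of the 12 markers was low in both HFD-KO libraries, while the class II core was low in the second alone. The ratio of the class II core to the summed macrophage markers was 0.515 and 0.594 in HFD-WT and 0.710 and 0.435 in HFD-KO, so the HFD-KO libraries were again the highest and the lowest.

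The sum of the 7 markers of monocytes and monocyte-derived macrophages came closer to the class II pattern. It was 88.6 and 108 CPM in HFD-WT and 92.7 and 55.7 CPM in HFD-KO. The class II core was between 2.85 and 3.39 times this sum in all 4 libraries. It was between 12.2 and 17.5 times the dendritic cell marker sum and between 20.0 and 86.6 times the B cell marker sum. Against the sinusoidal endothelial marker sum it was between 0.519 and 1.01. Lyz2, the lysozyme of myeloid cells, made up most of the monocyte marker sum. It had 63.4 and 76.6 CPM in HFD-WT and 69.5 and 43.2 CPM in HFD-KO. Gpnmb, a glycoprotein of lipid-laden macrophages, had 9.98 and 15.3 CPM in HFD-WT and 8.36 and 4.73 CPM in HFD-KO (log2 fold change -0.94, unadjusted p = 0.0125). Of the 7 markers, 6 had log2 fold changes below 0 and 1 above. The latter was Ly6c2, named after its values were seen, with 0.83 and 0.62 CPM in HFD-WT and 1.06 and 0.92 CPM in HFD-KO (log2 fold change 0.45). Dendritic cell markers summed to 17.9 and 22.2 CPM in HFD-WT and 16.3 and 13.6 CPM in HFD-KO, and all 8 of the 9 markers that were tested had log2 fold changes below 0. Among them, Itgax, an integrin of dendritic cells and macrophages, was at -0.81 (unadjusted p = 0.00740) and Clec9a, a receptor for dead cells on cross-presenting dendritic cells, at -0.76 (unadjusted p = 0.0272). Zbtb46, a transcription factor of classical dendritic cells, was at -0.06 (unadjusted p = 0.698). Xcr1, a defining receptor of the cross-presenting subset named after its values were seen, was under the filter on low counts.

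The 8 B cell markers summed to 4.59 and 4.22 CPM in HFD-WT and to 14.2 and 4.15 CPM in HFD-KO, and the log2 fold changes of the 7 tested were all above 0, none at an unadjusted p under 0.05. Cd79a and Cd79b, the signalling chains of the B cell receptor, had 2.92 and 1.98 CPM in the first HFD-KO library and at most 0.95 and 1.16 CPM in the others. The T and NK cell markers were also highest there, at 9.95 CPM against 3.22 to 5.09 CPM, with the T cell coreceptors Cd4 at 1.90 CPM against at most 1.02 CPM and Cd8a at 1.79 CPM against at most 0.52 CPM. Of the plasma cell markers, 5 of 6 were higher at an unadjusted p under 0.05, where 4.25% of all genes tested were. These markers did not all peak in the same library. Ighm, Igkc, a light chain of antibodies, and Jchain, their joining chain, were highest in the first HFD-KO library, with Igkc at 32.7 CPM against 3.78 to 6.35 CPM and Jchain at 8.21 CPM against 1.05 to 1.72 CPM. Igha, the heavy chain of IgA, was highest in the second HFD-KO library, with 0.55 and 0.69 CPM in HFD-WT and 1.48 and 3.39 CPM in HFD-KO (log2 fold change 1.96, unadjusted p = 0.00361, adjusted p = 0.275). Derl3, a protein of the endoplasmic reticulum in secretory cells, had 1.17 and 1.82 CPM in HFD-WT and 2.39 and 7.33 CPM in HFD-KO (log2 fold change 1.69, unadjusted p = 0.0126). The first HFD-KO library, in which Ciita was highest, also had the highest sums of B cell, plasma cell and T and NK cell markers. The part of any of these cells in the class II levels was not tested.

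Sinusoidal endothelial markers summed to 318 and 361 CPM in HFD-WT and 314 and 320 CPM in HFD-KO, and 1 of 8, Lyve1, a hyaluronan receptor, passed an unadjusted threshold of 0.05 in edgeR's quasi-likelihood test (log2 fold change -0.70, unadjusted p = 0.00165, adjusted p = 0.233). The scavenger receptors Stab2 and Stab1, the most abundant of the list, had log2 fold changes of -0.02 and -0.29. The hepatocyte marker sum was 91035 CPM in the second HFD-KO library and between 78440 and 79162 CPM in the other 3. Alb made up most of this sum, at 66104 CPM in that library and between 52676 and 54900 CPM in the others. Cps1 was also highest there, at 2314 CPM, while Cyp2e1, Apoa1, Ttr and Tat were not. Of these, Cps1, Apoa1, Ttr and Tat were named after their values were seen. Stellate cell markers summed to 307 and 348 CPM in HFD-WT and 270 and 225 CPM in HFD-KO. In 4 of 6 both HFD-KO libraries lay below both HFD-WT libraries, where 20.3% of all genes tested did. By edgeR's quasi-likelihood test, Col1a1, a fibrillar collagen, had a log2 fold change of -0.87 (unadjusted p = 0.00106, adjusted p = 0.210). Reln, a secreted matrix protein, was at -0.53 and Dcn, a proteoglycan, at -0.43. The remaining markers, named after their values were seen, were Lrat at -0.09, Des at 0.008 and Rgs5 at 0.07. The 4 cholangiocyte markers summed to between 5.66 and 7.25 CPM with no separation of the groups, with log2 fold changes of -0.11 for Sox9, a transcription factor, and -0.18 for Epcam, an adhesion molecule. Neutrophil markers were scarce, with S100a9 and S100a8, both calcium-binding proteins, between 0.30 and 2.85 CPM.

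**Figure D4:**
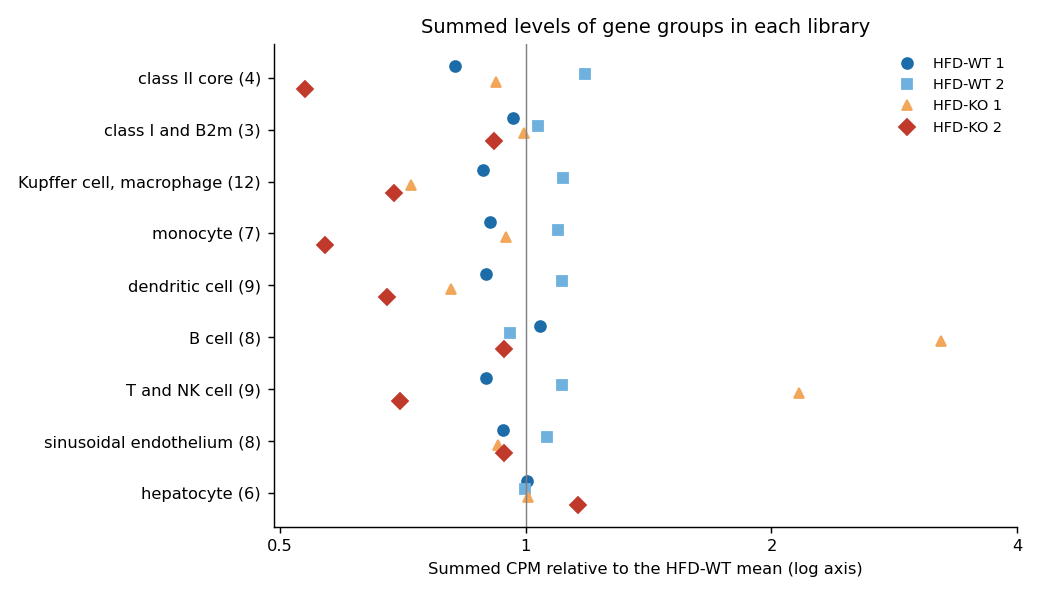
Summed CPM of each group of genes, relative to the mean of the 2 HFD-WT libraries (horizontal log axis; number of genes in parentheses), with 1 marker per library. The second HFD-KO library is lowest for the class II core and the monocyte markers, both HFD-KO libraries are low for the macrophage markers, and the first HFD-KO library stands to the right for the B, T and NK cell markers.

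The rest of the class II route was read from a list of 10 genes, of which 9 were tested. Here 7 had log2 fold changes below 0, 3 of them at an unadjusted p under 0.05, where 4.73% of all genes tested were lower. In each of these 3 both HFD-KO libraries lay below both HFD-WT libraries. Ifi30, a thiol reductase that opens disulphide bonds of antigens in lysosomes, had 17.7 and 19.1 CPM in HFD-WT and 13.98 and 13.6 CPM in HFD-KO (log2 fold change -0.42, unadjusted p = 0.00283, adjusted p = 0.262). Lgmn, an asparaginyl endopeptidase that cuts antigens and the invariant chain, had 81.3 and 90.1 CPM in HFD-WT and 64.96 and 66.9 CPM in HFD-KO (log2 fold change -0.38, unadjusted p = 0.00291). Ctss, the cathepsin that trims the invariant chain in antigen-presenting cells, had 37.1 and 50.1 CPM in HFD-WT and 33.3 and 25.7 CPM in HFD-KO (log2 fold change -0.56, unadjusted p = 0.0121), and without the second HFD-WT library its log2 fold change was -0.33 (unadjusted p = 0.0908). These 3 enzymes were picked by their unadjusted p, which favours groups that do not overlap, so their separation is not a further result. The groups overlapped for H2-Aa, H2-Ab1 and H2-Eb1, but not for H2-DMa. Ctsl, a cathepsin of most cell types and the most abundant gene of the list, had a log2 fold change of -0.02.

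H2-Ob, a subunit of the H2-O molecule that restrains H2-DM in B cells, went the other way at 0.73 and 0.80 CPM in HFD-WT and 2.28 and 0.96 CPM in HFD-KO. Its log2 fold change was 1.09 (unadjusted p = 0.0481, adjusted p = 0.548), and without the first HFD-KO library it was 0.34. That library is also the one with the highest B cell marker sum.

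Of 8 regulators of class II transcription, 6 had log2 fold changes above 0, and 1, Rfxap, a subunit of the RFX complex that binds the X box, had an unadjusted p under 0.05, with 6.22 and 7.05 CPM in HFD-WT and 8.89 and 8.42 CPM in HFD-KO (log2 fold change 0.38, unadjusted p = 0.0263, adjusted p = 0.480). Both HFD-KO libraries lay above both HFD-WT libraries, which 20.5% of all genes tested did. Its unadjusted p was 0.154 without the first HFD-WT library and 0.0716 without the first HFD-KO library. The NF-Y subunits Nfyb and Nfyc, which bind the Y box, had log2 fold changes of -0.08 and 0.06.

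Non-classical class I genes and class I-like molecules were next. Of 22 listed genes 20 were in the table and 17 were tested, with 11 log2 fold changes below 0. H2-Q1 had the smallest p of the list, at 30.7 and 31.9 CPM in HFD-WT and 21.2 and 15.5 CPM in HFD-KO, a log2 fold change of -0.77 (interval -1.09 to -0.44, unadjusted p = 0.000797, adjusted p = 0.188). By DESeq2 H2-Q1 was called (adjusted p = 0.0053), and so it was by edgeR's quasi-likelihood test without a filter (adjusted p = 0.0056). These settings called 117 and 162 genes of the whole table. Of the 93 transcript words of 100 bases that H2-D1 shares with other genes, 85 are also found in H2-Q1. H2-Q10, a secreted class I molecule of the liver, had the highest level with 2206 and 2165 CPM in HFD-WT and 1984 and 1849 CPM in HFD-KO (log2 fold change -0.19, unadjusted p = 0.112). H2-T23, which encodes Qa-1, a ligand of inhibitory NK receptors, had a log2 fold change of 0.02.

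The machinery that feeds class I with peptides differed little between the genotypes. Of 9 peptide loading genes 7 had log2 fold changes above 0, from -0.06 to 0.20 over the list, and none had an unadjusted p under 0.05. Calr, a chaperone of the loading complex, was at 0.12 and Pdia3, its thiol oxidoreductase, at 0.15. Of 9 proteasome genes 8 were below 0, from -0.18 to 0.08, again with none at an unadjusted p under 0.05. The subunits Psmb6 and Psmb7, which the immunoproteasome exchanges, had log2 fold changes of 0.08 and -0.06.

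Interferon gamma is the best known inducer of both classes, and its response genes were split evenly, with 11 of 22 tested below 0 and 11 above, and a median log2 fold change of 0.00087. The GTPases Igtp and Irgm1, the genes of this list with the highest level per length, had log2 fold changes of 0.07 and 0.02. Irf8, a transcription factor of macrophages, dendritic cells and B cells, had 10.05 and 11.7 CPM in HFD-WT and 8.24 and 8.75 CPM in HFD-KO (log2 fold change -0.36, unadjusted p = 0.0267, adjusted p = 0.482), with an unadjusted p of 0.192 without the second HFD-WT library and 0.0684 without the first HFD-KO library. Of the 5 costimulation genes, which give T cells the signal that goes with the peptide, none had an unadjusted p under 0.05, with Cd86 at -0.30 and Cd83 at 0.19. Over all listed pathway genes outside the 10, 78 of 85 were tested. Of these, 42 were below 0 and 36 above, with a median log2 fold change of -0.02. At an unadjusted p under 0.05, 5 were lower and 2 higher, where 4.73% and 4.25% of all genes tested were. None of the 78 had an adjusted p under 0.05 by edgeR's quasi-likelihood test with the filter on low counts.

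**Figure D5:**
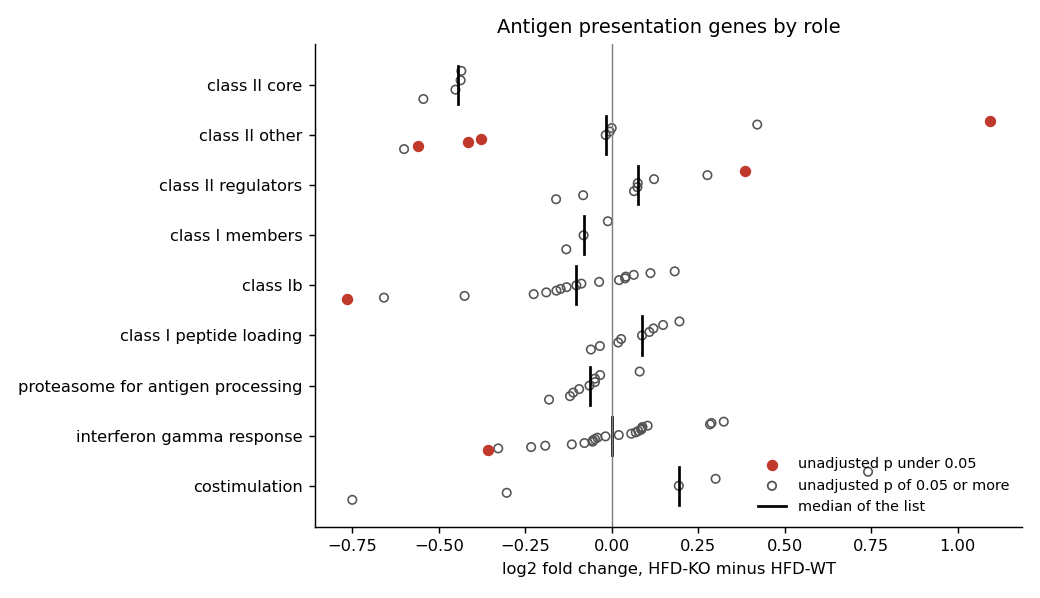
Log2 fold change, HFD-KO minus HFD-WT (horizontal axis) for each tested gene of the lists, 1 marker per gene, filled where the unadjusted p is under 0.05, with the median of each list as a black bar. The class II core lies near -0.44, while the class I, peptide loading, proteasome and interferon gamma lists lie around 0.

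The genes whose course over the 4 libraries was most like that of the class II core were sought among 9266 tested genes. These had a mean of at least 5 CPM, and the class II members and the list of the class II route were left out. With only 4 values per gene, near courses are easily found among so many genes, so the nearness is description only. Likeness was the root mean square distance between centred log2 CPM values. The nearest was Clec12a, an inhibitory lectin receptor of myeloid cells, at a distance of 0.038, with 4.97 and 7.63 CPM in HFD-WT and 5.66 and 3.43 CPM in HFD-KO. It was followed by Arhgap30 at 0.058, Capg, an actin filament capping protein, at 0.059, Lrch4 at 0.063 and Mmp12, the macrophage elastase, at 0.063. For comparison, the class II core genes themselves were between 0.017 and 0.065 from their own mean, H2-DMb1 was at 0.064 and H2-DMa at 0.213. Lyz2 was at 0.122, and the macrophage receptor Csf1r, named after its values were seen, at 0.211. The class I genes lay between 0.304 and 0.390, and Ciita at 0.530.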

How the data were processed

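The 4 liver libraries, 2 per genotype, were grouped by their titles. The authors made directional libraries (MGI Tech) from RNA extracted with TRIzol, sequenced paired ends, aligned the reads with MGI's tool and quantified genes in Partek Genomics Suite. Aligner parameters, and the use of strand and of reads with several matches in counting, are not given in the sources used here. The methods name mm10 while the gene positions of the deposited table are on GRCm39, and promoters come from RefSeq on GRCm38.p6. The authors deposited read counts, which were tested here, and TPM, used for levels between genes. The deposited RPKM values and the CPM values of the authors, a score on an adjusted library size, were not used, and CPM here were computed from counts with TMM library sizes.

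Counts were analysed with edgeR 4.0.16 in R 4.3.3 (filterByExpr, TMM, quasi-likelihood test, two-sided, Benjamini-Hochberg over 12967 genes). The common biological coefficient of variation was 0.102. Intervals of 95% used the standard error of the unshrunk fold change. With 2 libraries against 2 the smallest exact permutation p is 0.333, so none was run. DESeq2 1.42.0, other scalings, no filter, left-out libraries, a replicate block and summed reads of near copies were tried as alternatives, the last chosen after seeing the data. The fit was tested on simulated data. Words of 100 bases were compared over GENCODE M21 transcripts. Tables and plots were made with Python 3.11.15, pandas 2.3.3, numpy 2.4.6 and matplotlib 3.10.9.

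The genes, lists and markers were chosen with earlier results of these data known. Genes named are the 10 members, Adarb1 and the 5 genes most like the class II core. In each pathway list they are the 2 with the highest TPM and up to 6 with an unadjusted p under 0.05. In each marker list they are the 2 with the highest CPM and up to 3 with an unadjusted p under 0.05. H2-DMb2 was named as a near copy of H2-DMb1. H2-Ea, Xcr1, Csf1r, Ly6c2, Marco, Cd68, Lrat, Des, Rgs5, Cps1, Apoa1, Ttr and Tat were named after their values were seen.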

Additional observations from a re-analysis of the deposited data

How the results depend on the processing

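Of the 10 genes, none was called under another scaling, without a filter, by DESeq2 or with the replicate block, and all 10 log2 fold changes stayed below 0 in these settings. With each library left out, between 0 and 7 genes were called, from 0 to 8 had an unadjusted p under 0.05 in the lower direction, and 7 to 10 log2 fold changes were below 0. The 7 calls came without the first HFD-KO library. Without a filter, 6 were lower at an unadjusted p under 0.05, where 789 of the 17301 genes with a count were lower and 698 higher. Ciita was reversed at 0.55 without the second HFD-KO library and stood at 0.11 without the second HFD-WT library. Its lowest value, -1.72, came without the first HFD-KO library.

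Over all genes, 10 were called, against 6 by library size alone, 162 without a filter, 117 by DESeq2 and 20 with the replicate block, and 0 to 705 with each library left out (0 without the second HFD-WT library, with 255 higher and 207 lower at an unadjusted p under 0.05). The highest counts at an unadjusted p under 0.05, 1095 higher and 1078 lower, came without the first HFD-KO library. By DESeq2 these counts were 304 and 372, and by library size alone 346 and 894, against 551 and 613. The cause of these differences was not tested.

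The log2 ratio of the class II core to the macrophage markers (HFD-KO minus HFD-WT) was 0.05, and from -0.35 without the first HFD-KO library to 0.36 without the second. The labels give no pairing. Deviations of libraries with the same replicate number had a correlation of -0.087 over genes, which with 2 libraries per group cannot settle whether they were paired. The replicate block moved Ciita to -0.38, H2-Aa to -0.48 and H2-DMa to -0.70. With the reads of H2-K1, H2-D1 and the H2-Q genes summed, the log2 fold change was -0.12. Depth limits chiefly Ciita, with 22 reads in 1 library.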
